A study of Homo sapiens with 24 samples.

Results

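The 5 GATA transcription factor genes GATA4, GATA6, GATA5, GATA2 and GATA3 were examined through the histone marks on the regions around them. Members were all regions of the deposited list that overlap a fixed hg19 window around each gene, chr8:11520000-11630000 for GATA4, chr18:19735000-19795000 for GATA6, chr20:61025000-61065000 for GATA5, chr3:128185000-128225000 for GATA2 and chr10:8080000-8130000 for GATA3. This gave 59 of 153244 regions: 23 at GATA4, 14 at GATA6, 12 at GATA5, 5 at GATA2 and 5 at GATA3. The rule uses position alone, and the genes were picked with earlier results of these data known. The windows were taken as given, and where each gene starts and which exons and introns the regions cover on hg19 was not analysed here.

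The libraries are CUT&Tag, in which an antibody to a histone mark directs a transposase to cut and tag the DNA beside it. They came from ventricular-like cardiomyocytes at day 15, differentiated from H9, an established line of human embryonic stem cells, in a control group and a group with knockdown of ZNF436, a zinc finger gene. The series profiles histone marks under these conditions, and its title concerns the restriction of transposon-derived regulatory elements. H3K4me3, H3K27ac, H3K4me1 and H3K9me3 were each measured in 3 control and 3 knockdown libraries, 24 in all. Both groups share the cell line, the differentiation and the day, and all cells derive from 1 line. What the control cells received and how ZNF436 was knocked down are not given in the sources used here. The knockdown could not be checked here, because these libraries hold no RNA measurement. Whether replicates were grown separately is not stated, so every p-value reflects only how these libraries vary, and that variation may be technical.

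GATA factors bind DNA at the core letters GATA through a pair of zinc fingers and open or hold open the enhancers of the tissues that use them. GATA4, GATA5 and GATA6 act in heart and endoderm, where GATA4 and GATA6 work with NKX2-5, TBX5 and HAND2 in the early heart. GATA2 acts in blood progenitors, endothelium and some neurons, and GATA3 in T cells, trophoblast and several ectoderm-derived tissues. Of the marks, H3K4me3 lies over promoters, H3K27ac over promoters and enhancers in use, H3K4me1 over enhancers and the flanks of promoters, and H3K9me3 over silenced chromatin.

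The bases just before a start site are shown for GATA2, the gene with the 1 called change, and GATA6, the gene with the highest H3K4me3 level. They come from RefSeq on GRCh38.p14, another build than the hg19 windows, so no overlap with a region is claimed. RefSeq promoter entries were matched for 3 of the 5 genes, 9 entries in all (2 for GATA2, 6 for GATA3, 1 for GATA6). Each line gives the 250 bases before a start, 5′ to 3′ on the gene's strand, with CG pairs in capitals.
GATA2, chr3:128493202-128493451, minus strand: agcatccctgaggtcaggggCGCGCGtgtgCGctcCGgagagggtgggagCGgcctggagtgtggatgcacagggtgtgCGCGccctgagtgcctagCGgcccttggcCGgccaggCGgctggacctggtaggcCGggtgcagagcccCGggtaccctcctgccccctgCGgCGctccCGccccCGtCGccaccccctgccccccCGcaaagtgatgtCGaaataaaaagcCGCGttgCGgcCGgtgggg
GATA2, chr3:128488531-128488780, minus strand: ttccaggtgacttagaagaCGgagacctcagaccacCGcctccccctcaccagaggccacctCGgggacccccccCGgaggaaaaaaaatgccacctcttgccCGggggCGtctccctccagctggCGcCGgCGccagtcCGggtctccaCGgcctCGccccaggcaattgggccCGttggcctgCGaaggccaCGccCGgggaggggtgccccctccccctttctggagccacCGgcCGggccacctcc
GATA6, chr18:22169339-22169588, plus strand: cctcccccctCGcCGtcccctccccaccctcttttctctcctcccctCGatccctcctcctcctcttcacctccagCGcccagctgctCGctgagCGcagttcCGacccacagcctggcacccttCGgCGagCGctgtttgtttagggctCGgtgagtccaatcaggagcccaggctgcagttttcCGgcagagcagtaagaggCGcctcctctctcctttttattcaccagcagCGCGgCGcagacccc
The GATA2 stretches hold 24 and 18 CG pairs and the GATA6 stretch holds 16, against a median of 11 over 35116 promoters of the same length. The letters GATA, searched on both strands as GATA or TATC, do not occur in any of the 3, while 45.6% of all promoters hold them. Of the 6 GATA3 entries, 2 hold them. No match says only that these letters are not in these windows.

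Total counts over all regions ran from 11023905 to 13933927 per library for H3K4me3, 3920283 to 4936265 for H3K4me1, 2955710 to 3681687 for H3K27ac and 2103185 to 2880412 for H3K9me3. Levels are in CPM, the count of a region as a share of its library's TMM-scaled total. A window level is the summed CPM of a gene's regions divided by their summed width in kb, so that genes can be compared per length. Over all regions the control mean was 5.81 CPM per kb for H3K4me3, 6.38 for H3K27ac, 6.02 for H3K4me1 and 6.53 for H3K9me3. Heart identity was checked on TNNT2, MYH6, ACTN2, PLN and TTN, which encode contractile and calcium-handling proteins: their joint H3K27ac level was 6.59 to 17.3 CPM per kb in control and 15.3 to 18.8 in knockdown libraries.

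Control replicate 2, a separate library for each mark, stood apart at these genes. Its H3K27ac window level was 0.402 times the mean of the other two control libraries at GATA4, 0.592 times at GATA6 and 0.726 times at GATA5, and 1.95 times at GATA3. For H3K4me3 the same ratios were 0.569, 0.679, 0.803 and 1.73. Its H3K9me3 level was 1.51 to 3.4 times theirs in all 5 windows. The joint level of the 5 cardiomyocyte genes was also lowest in control replicate 2, at 1.95 CPM per kb of H3K4me3 against 3.5 and 6.39 in the other controls, and at 6.59 of H3K27ac against 9.93 and 17.3. COL1A1, PDGFRA and WT1, genes of fibroblast and epicardial cells, had a joint H3K27ac level of 6.12 in it against 4.33 and 3.32, and H3K4me3 of 8.73 against 8.6 and 8.09. COL1A1 carried that H3K4me3 difference, at 11.6 against 7.08 and 6.33, while PDGFRA and WT1 were lowest in it. Of the marker lists described further on, the endothelial, pluripotency and ectoderm lists also had their highest control H3K27ac in it. The blood and endoderm lists had their lowest. The part of cell makeup in these differences was not tested, and in bulk libraries fewer cells with a mark and less mark per cell cannot be told apart. Results that rest on this library are given with and without it.

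GATA4, the heart factor of cardiac specification and growth, had the widest region of the 5 genes. This region, chr8:11553972-11568385, spans 14414 bp, is wider than 99.9% of all regions and carried H3K27ac. Region bounds are shared by all marks, so this is not a width of acetylation. H3K27ac there was 324, 130 and 411 CPM in the 3 control libraries and 345, 272 and 323 in the 3 knockdown libraries. The lowest value is control replicate 2, the knockdown libraries lie within the control range, and the groups overlap. The log2 fold change, knockdown over control, was 0.12 (SE 0.27, edgeR adjusted p = 0.918), and without control replicate 2 it was -0.22 (adjusted p = 0.756). A second region, chr8:11532408-11539573, had 146, 42.6 and 175 CPM of H3K27ac in control and 205, 141 and 174 in knockdown, again with control replicate 2 far the lowest. Its log2 fold change was 0.52 (edgeR adjusted p = 0.596) and 0.12 without that library (adjusted p = 0.937). Together the 2 regions held 59.99% of the window's H3K27ac counts and 77.2% of its H3K4me3 counts in control.

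H3K4me1 at GATA4 was densest elsewhere, in chr8:11598971-11603312, at 18.6 CPM per kb in control, a level above 99.1% of all regions. That region also carried H3K27ac, at 14.4 CPM per kb. By contrast the densest H3K4me3 of the window, 19.8 CPM per kb in chr8:11626676-11628596, lay at its far end with 0.274 times as much H3K27ac as H3K4me3. In RefSeq gene order GATA4 is followed by LINC02905, LOC124901888 and NEIL2, and which gene this region serves was not analysed here.

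GATA6, which acts beside GATA4 in heart and endoderm, had the highest mean H3K4me3 level of the 5 windows. One region of 12497 bp, chr18:19743498-19755994, held 94.2% of the window's H3K4me3 counts in control. Its H3K4me3 was 408, 284 and 432 CPM in control and 412, 395 and 412 in knockdown, with control replicate 2 lower than the other five libraries. The log2 fold change was 0.12 (SE 0.16, edgeR adjusted p = 0.884) and -0.05 without that library. H3K27ac in the same region was 246, 108 and 211 CPM in control and 276, 236 and 234 in knockdown, groups that overlap (log2 fold change 0.40, SE 0.24, edgeR adjusted p = 0.567; 0.13 without control replicate 2). At 29.99 CPM per kb the control H3K4me3 level was above 97.5% of all regions. RefSeq places GATA6-AS1 next to GATA6, and which starts the region covers was not analysed here.

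H3K27ac at GATA6 was densest in a different, smaller region, chr18:19772633-19775302. It was 47.2, 45.1 and 52.9 CPM in control and 87.1, 68.2 and 80.8 in knockdown. All 3 knockdown libraries lay above all 3 controls, control replicate 2 was close to the other controls, and H3K4me1 there had the opposite order (36.5 ± 3.80 in control, 29.8 ± 2.92 in knockdown, SD, n = 3). The H3K27ac log2 fold change was 0.70 (SE 0.24) and did not pass the test over all regions (edgeR adjusted p = 0.255), nor without control replicate 2 (0.66, adjusted p = 0.336).

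GATA5, a heart and endoderm factor of the endocardium, had the highest H3K4me1 level of the windows. It had little H3K4me3 per kb of its regions, which cover 57.1% of the window. Its 8927 bp region chr20:61054558-61063484 had 210 ± 29.2 CPM of H3K4me1 in control and 176 ± 10.2 in knockdown (SD, n = 3), and its control density of 23.5 CPM per kb was above 99.9% of all regions. That 1 region held 62.8% of the window's H3K4me1 counts and 53.7% of its H3K27ac counts in control. Its H3K27ac was 107, 81.5 and 83.7 CPM in control and 113, 118 and 117 in knockdown, groups that do not overlap (log2 fold change 0.36, SE 0.21, edgeR adjusted p = 0.566).

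H3K4me3 at GATA5 lay mainly in the neighbouring chr20:61047208-61052117, with 79.3% of the window's counts. It was 65.4, 48.9 and 74.0 CPM in control and 87.5, 77.6 and 91.1 in knockdown. Every knockdown library was above every control library, and control replicate 2 was the lowest. The log2 fold change was 0.44 (SE 0.13) and did not pass (edgeR adjusted p = 0.226); without control replicate 2 it was 0.29 (adjusted p = 0.196). DESeq2 called the region (adjusted p = 0.0373), as did edgeR without a filter on low counts (7e-04) and edgeR without control replicate 3 (log2 fold change 0.58, adjusted p = 0.0085).

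**Figure D1:**
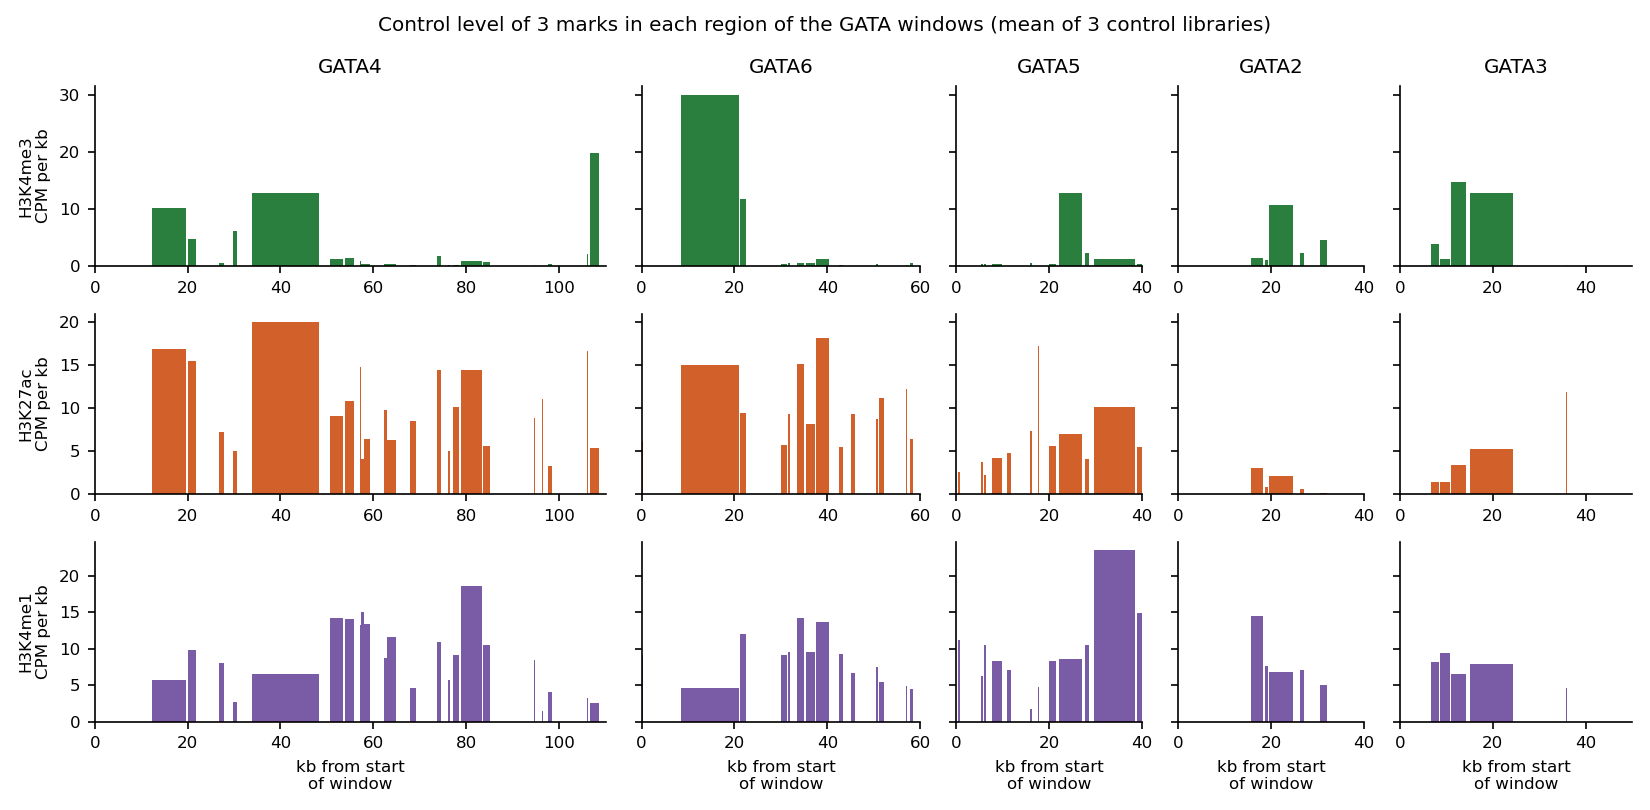
Control level of H3K4me3, H3K27ac and H3K4me1 (CPM per kb, mean of 3 control libraries) in each region of the 5 windows, with the distance from the window's start in kb on the horizontal axis and 1 bar per region as wide as the region. H3K27ac is seen in many regions at GATA4, GATA6 and GATA5, although 2 regions hold 59.99%, 69.3% and 73.7% of its control counts there. It is low across GATA2, while H3K4me3 at GATA6 sits almost wholly in 1 region.

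GATA2, a factor of blood progenitors and endothelium, carried H3K4me3 with little H3K27ac, and its H3K4me3 rose in the knockdown. The region is chr3:128204543-128209771, of 5229 bp. H3K4me3 there was 53.1, 63.0 and 51.9 CPM in control and 96.3, 72.5 and 84.1 in knockdown, from 2100 counts in the control and 2960 in the knockdown libraries. No knockdown library lay as low as any control. The log2 fold change was 0.59 (SE 0.11) and passed the test over all 26773 regions of the mark (edgeR adjusted p = 0.0183), 1 of 25 tested GATA regions to do so, where 0.56% of all tested regions were called.

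That call does not rest on control replicate 2, without which the log2 fold change was 0.68 (edgeR adjusted p = 0.00125). Its adjusted p was 0.116 without control replicate 1, 0.127 without knockdown replicate 1 and 0.162 without knockdown replicate 3, so the call was lost with any of these 3 libraries left out. H3K4me1 in the same region was 40.5, 36.6 and 30.7 CPM in control and 27, 26.9 and 27.4 in knockdown. All knockdown libraries were below all controls, with a log2 fold change of -0.41 that did not pass (SE 0.23, edgeR adjusted p = 0.532). H3K27ac in the region was 10.9 ± 2.02 CPM in control and 10.7 ± 2.56 in knockdown (SD, n = 3), with a log2 fold change of -0.03 (SE 0.49, edgeR adjusted p = 0.99). RefSeq lists GATA2-AS1 overlapping GATA2, and CUT&Tag counts do not tell their starts apart.

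GATA3, a factor of T cells and ectoderm-derived tissues, carried its H3K4me3 in a pair of neighbouring regions that held 94.7% of the window's counts in control. In the larger, chr10:8095074-8104296 of 9223 bp, H3K4me3 was 95.3, 159 and 98.3 CPM in control and 127, 134 and 133 in knockdown. Control replicate 2 was above every knockdown library and the other controls were below every one, so the groups overlap. The log2 fold change was 0.16 (SE 0.23, edgeR adjusted p = 0.892) with all libraries and 0.44 (SE 0.07, adjusted p = 0.00243) without control replicate 2, so 1 library decides whether this region is called. H3K27ac there was 28.3, 79.3 and 36.7 CPM in control and 31.3, 33.7 and 31.1 in knockdown, again with control replicate 2 the highest. GATA3-AS1 overlaps GATA3 in RefSeq.

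H3K4me1 at GATA2 was densest beside the called region rather than in it. In chr3:128200725-128203361 it was 37.4, 46.7 and 30.9 CPM in control and 35.3, 38.6 and 36.3 in knockdown, a control density of 14.5 CPM per kb against 6.88 in the called region. The groups overlap there (log2 fold change -0.06, SE 0.22, edgeR adjusted p = 0.943). Another region, chr3:128215475-128217075, had H3K4me3 of 8.90, 6.93 and 6.19 CPM in control and 10.7, 9 and 10.1 in knockdown. Its groups do not overlap, as in the called region, but the change did not pass (log2 fold change 0.44, SE 0.24, edgeR adjusted p = 0.572). At GATA3, H3K4me1 was highest per length in chr10:8088640-8090775, with 20.1 ± 3.90 CPM in control and 19.8 ± 4 in knockdown (SD, n = 3), and no tested GATA3 region had H3K4me1 groups without overlap.

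**Figure D2:**
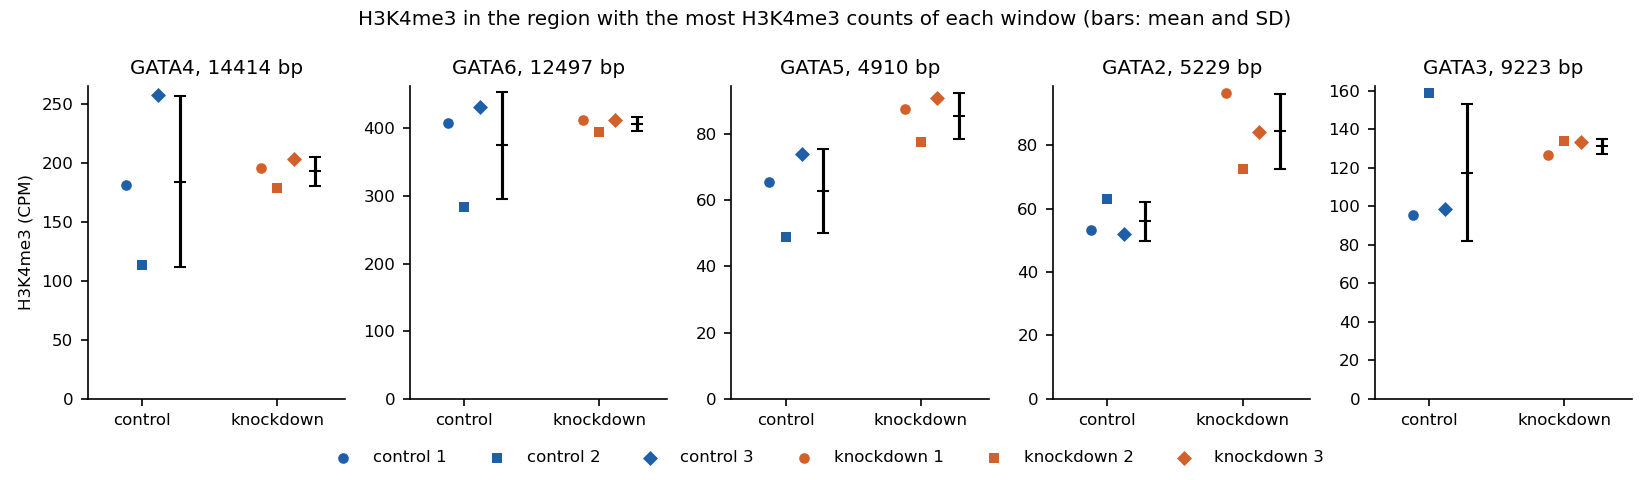
H3K4me3 (CPM) per library in the region with the most H3K4me3 counts of each window, 3 control and 3 knockdown libraries by symbol, with the mean and SD beside them. The groups do not overlap at GATA5 and GATA2, and control replicate 2 (square) is the lowest library at GATA4, GATA6 and GATA5 and the highest at GATA3.

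The balance of the 2 promoter marks was highest at GATA4 and lowest at GATA2. In the region with the most H3K4me3 counts of each window, the ratio of H3K27ac to H3K4me3 CPM in control was 1.56 at GATA4, 0.55 at GATA5, 0.50 at GATA6, 0.41 at GATA3 and 0.20 at GATA2. In knockdown it was 1.62, 0.65, 0.61, 0.24 and 0.13 in the same order. The median over 30649 regions in the top 20% of control H3K4me3 density was 0.90 in control and 0.93 in knockdown, so GATA4 alone of the 5 was above it in both groups. Its percentile among them was 55.4 in control and 55.7 in knockdown, with GATA5 at 42.0 and GATA6 at 39.6 in control. In the densest H3K4me3 region of GATA4 the control ratio was 0.27, below those of GATA5 and GATA6. Taken between same-numbered libraries, the ratio in the regions with the most counts was 1.15 to 1.79 at GATA4 and 0.11 to 0.21 at GATA2, outside the range of the other three. GATA6 (0.38 to 0.67), GATA5 (0.47 to 0.80) and GATA3 (0.235 to 0.50) overlapped. These regions were singled out after their values were seen, and the ratio compares libraries made with different antibodies.

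Over whole windows, the heart members carried more H3K27ac than GATA2 and GATA3. Control H3K27ac was 13.8 ± 6.27 CPM per kb at GATA4, 12.9 ± 3.52 at GATA6, 7.47 ± 1.30 at GATA5, 4.05 ± 1.74 at GATA3 and 1.85 ± 0.207 at GATA2 (SD, n = 3). GATA4 and GATA6 differed by less than 1 SD of their difference (0.02 ± 0.34 on the log2 scale), and each was above GATA5 in 6 of 6 libraries. GATA5 was above GATA3 in 5 of 6 libraries, the exception being control replicate 2. The mean log2 level of GATA4, GATA6 and GATA5 minus that of GATA2 and GATA3 was 2.37, 1.02 and 2.44 in control and 2.31, 2.19 and 2.60 in knockdown, above 0 in 6 of 6 libraries. On this scale, with 0.1 added to each level before log2, this is a 3.85-fold difference in control and 5.16-fold in knockdown, and the groups overlap (exact two-sided permutation p = 0.7, where 3 against 3 allows no p under 0.1). The knockdown minus control difference of 0.42 became -0.04 without control replicate 2.

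H3K4me3 did not follow this order. Its control window level was 15.1 ± 3.16 CPM per kb at GATA6, 10.5 ± 3.58 at GATA3, 6.79 ± 2.34 at GATA4, 6.41 ± 0.533 at GATA2 and 3.45 ± 0.481 at GATA5 (SD, n = 3). GATA6 and GATA3, GATA3 and GATA4, and GATA4 and GATA2 each differed by less than 1 SD of their difference, while GATA5 was below each of the others in 6 of 6 libraries. The heart members minus the other two came to -0.01, -0.90 and 0.28 in control and -0.32, -0.32 and -0.25 in knockdown, above 0 in 1 of 6 libraries (exact two-sided permutation p = 0.9). So per kb of regions the heart members and the other 2 differed in acetylation in all libraries. On that scale alone, they were not set apart in this direction by H3K4me3. Regions covered 43.7% of the window at GATA4, 44.0% at GATA6 and 57.1% at GATA5, against 27.3% at GATA2 and 33.5% at GATA3. Dividing by window length would therefore raise the heart members against the other 2. The H3K4me3 order per kb of window was not examined, and the sign of its heart minus other difference may be reversed there.

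H3K4me1 was highest at GATA5, with 14.6 ± 1.82 CPM per kb in control, above the other 4 windows in 6 of 6 libraries. The other 4 lay between 7.55 and 8.88, and neighbours in this order differed by less than 1 SD of their difference. H3K9me3 was between 0.991 and 1.67 CPM per kb in control at all 5 genes, against 6.53 over all regions. Heart minus other was above 0 in 5 of 6 libraries for H3K4me1 and 3 of 6 for H3K9me3, with exact two-sided permutation p of 1.0 and 0.9 between groups.

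**Figure D3:**
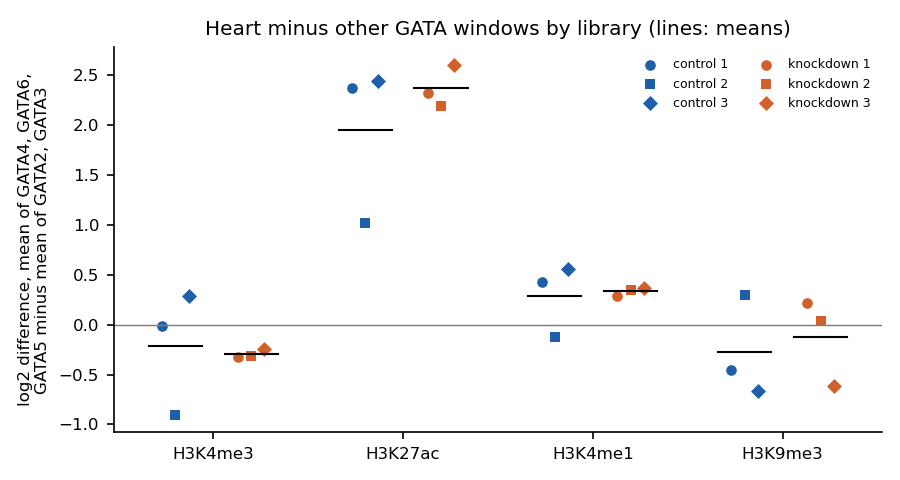
Mean log2 window level of GATA4, GATA6 and GATA5 minus that of GATA2 and GATA3 in each library, by mark, with lines at the mean of 3 control and of 3 knockdown libraries. All 6 H3K27ac libraries are above 0, from 1.02 to 2.60, and control replicate 2 (blue square) is the lowest for 3 of the marks.

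Between groups, 4 of the 20 window levels did not overlap, all with the knockdown above. That is 20%, beside 16.3% of the 104 levels of the partner and marker windows described further on (14 above, 3 below) and 16.2% of single tested regions for H3K4me3 and 17.5% for H3K27ac. H3K4me3 at GATA2 was 6.16, 7.02 and 6.04 CPM per kb in control and 10.6, 8.06 and 9.46 in knockdown. At GATA5, H3K4me3 was 3.46, 2.97 and 3.93 against 4.55, 4.16 and 5.00, and H3K27ac was 8.26, 5.97 and 8.18 against 9.89, 8.63 and 9.72. H3K27ac at GATA6 was 14.6, 8.80 and 15.2 against 17.5, 15.4 and 15.8. Each had an exact two-sided permutation p of 0.1, the smallest possible. The log2 difference was 0.54 for GATA2 H3K4me3, 0.40 for GATA5 H3K4me3, 0.34 for GATA5 H3K27ac and 0.37 for GATA6 H3K27ac. Without control replicate 2 these came to 0.60, 0.30, 0.19 and 0.12, so both H3K27ac differences fell by more than 1.5 times. GATA4 H3K27ac changed sign, from 0.28 with all libraries to -0.15 without it.

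**Figure D4:**
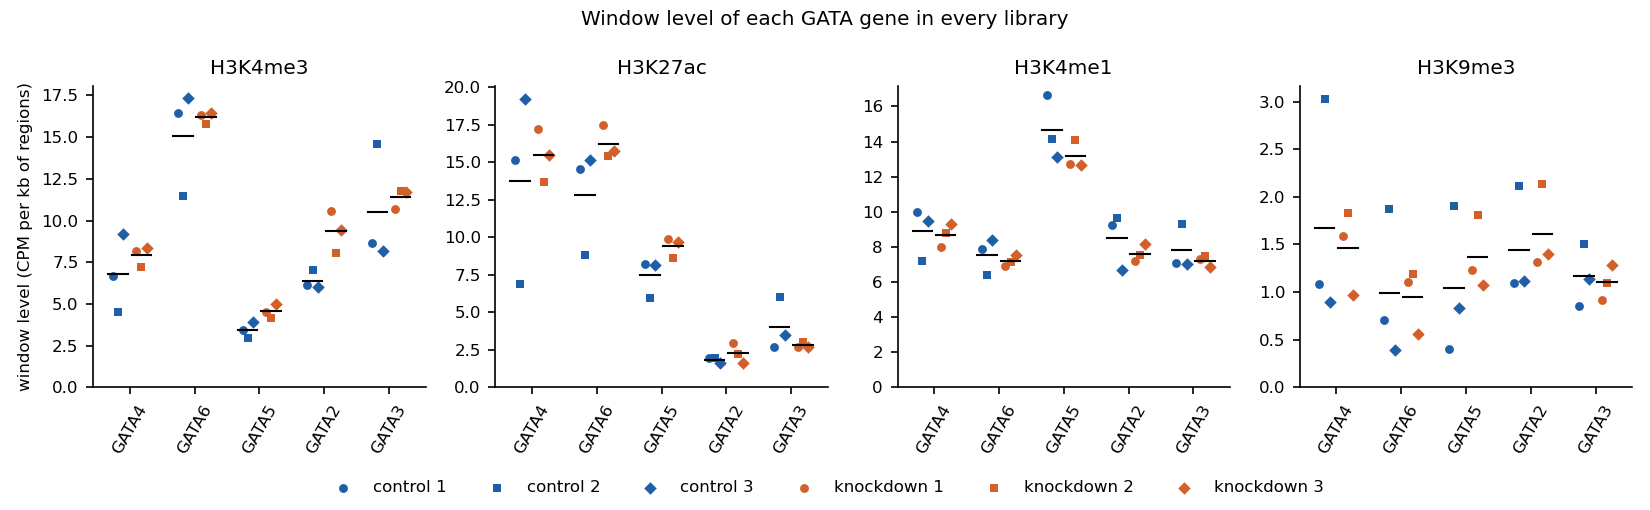
Window level (CPM per kb of regions) of each GATA gene in every library, by mark, with 3 control and 3 knockdown libraries by symbol and lines at the means. GATA2 H3K4me3 has all knockdown libraries above all controls, and control replicate 2 (blue square) lies apart at GATA4 and GATA6 and, in the other direction, at GATA3.

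Region by region, 4 of 25 tested GATA regions had an unadjusted p under 0.05 for H3K4me3, all 4 higher in the knockdown, where 10.2% of all tested regions reached it in either direction. They were the GATA2 and GATA5 regions above, a GATA2 region of 833 bp (chr3:128211250-128212082, 1.93 to 4.07 CPM) and chr8:11540115-11541891 at GATA4 (8.47 ± 3.62 to 15.0 ± 1.5 CPM, SD, n = 3; log2 fold change 0.83, edgeR adjusted p = 0.219). The GATA4 region was called by edgeR without control replicate 3 (log2 fold change 1.21, adjusted p = 0.0087) and without a filter on low counts (adjusted p = 0.0103). Without control replicate 2 it was not called (log2 fold change 0.58, adjusted p = 0.39). For H3K4me3, 19 log2 fold changes were above 0 and 6 below, with a median of 0.13 against -0.01 over all tested regions. All knockdown libraries were above all controls in 4 regions and below in none, where 8.49% and 7.74% of all tested regions were.

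Under edgeR, H3K27ac had 0 of 41 tested GATA regions called, where 0.0114% of all regions were, and 4 with an unadjusted p under 0.05, where 11.3% of all regions had one. DESeq2 and limma-voom also called 0. Of these 41, 20 log2 fold changes were above 0 and 21 below (median -0.03, against -0.05 over all regions). All 4 tested H3K27ac regions of GATA2 and GATA3 had log2 fold changes below 0 and none passed. Without control replicate 2 the largest GATA3 region went from -0.58 to -0.01 and the GATA2 region with most of its H3K4me3 from -0.03 to 0.10. Groups did not overlap in 4 regions, all with the knockdown above, where 9.14% of all regions were above and 8.37% below. For H3K4me1, edgeR called 0 of 51, where 0.0% of all regions were called, and 2 had an unadjusted p under 0.05 (10.5% of all regions). Groups did not overlap in 2 H3K4me1 regions with the knockdown above and 2 with it below, where 7.9% and 7.68% of all regions did so. For H3K9me3 edgeR called 0 of 7, where 0.00982% were, with 0 at an unadjusted p under 0.05 (8.31% of all regions) and none without overlap (7.17% of all regions above, 7.19% below). DESeq2 and limma-voom called 0 GATA regions for these 2 marks as well. On simulated counts at this size, the test recovered 55.2% of regions changed by a log2 fold of 1 for H3K4me3 but 1.2% for H3K27ac. The changed regions were drawn at random from all tested regions, so an H3K27ac change of that size was mostly not detectable in a typical region. Recovery in regions with as many counts as the large GATA regions was not examined. Of 25076 simulated H3K4me3 regions, the test also called 15 that were unchanged. Its true calls there were 55.2% of 96 regions changed by a log2 fold of 1 and 77.7% of 94 changed by a log2 fold of 2.

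Among smaller regions inside the heart windows, H3K27ac was above every control in every knockdown library at 1 more region each of GATA6 and GATA4. At GATA6, chr18:19765110-19766272 had 7.58, 6.98 and 5.14 CPM in control and 15.6, 15.2 and 12 in knockdown (log2 fold change 1.11, SE 0.51, edgeR adjusted p = 0.409). At GATA4, chr8:11603677-11605046 had 8.96, 3.67 and 10.3 CPM in control and 19.1, 11.7 and 16 in knockdown (log2 fold change 1.03, SE 0.51, adjusted p = 0.471). The GATA4 region with the smallest p for H3K27ac, chr8:11617674-11618451, had 1.38, 0.734 and 5.51 CPM in control and 10.2, 3.79 and 12.6 in knockdown, groups that overlap, from 21 and 81 counts in all (log2 fold change 1.80, SE 0.79, adjusted p = 0.388). At GATA5, chr20:61047208-61052117, the region with most of its H3K4me3, had H3K27ac of 31.7, 22.8 and 49.2 CPM in control and 70.1, 44.3 and 52.7 in knockdown (log2 fold change 0.69, SE 0.31, adjusted p = 0.396). None of these passed the edgeR test over all H3K27ac regions. Without control replicate 2 the log2 fold changes were, in the same order, 1.16, 0.70, 1.38 and 0.47, and none passed.

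Other regions leaned the other way or not at all. H3K4me3 in chr18:19756119-19757474, beside the main GATA6 region, was 17.5, 13.2 and 16.8 CPM in control and 12.1, 13.7 and 12.2 in knockdown, groups that overlap (log2 fold change -0.31, edgeR adjusted p = 0.626). H3K4me1 in chr18:19768434-19770035, the densest such region at GATA6, was 22.9 ± 4.61 CPM in control and 21.6 ± 2.13 in knockdown (SD, n = 3). The 2 regions with an unadjusted p under 0.05 for H3K4me1 were chr18:19792711-19793446 at GATA6, with 3.38, 1.71 and 4.68 CPM in control and 8.56, 5.13 and 8.92 in knockdown, and chr20:61032804-61034896 at GATA5, with 23.4, 13.2 and 15.3 against 23.3, 25.9 and 31.5. The first has no overlap between groups and the other does, and their edgeR adjusted p were 0.399 and 0.413. H3K9me3 in the large GATA4 region was 22.1, 75.7 and 17.3 CPM in control and 24, 32.5 and 11.9 in knockdown, so the lower knockdown mean rests on control replicate 2: the log2 fold change was -0.74 with all libraries and 0.16 without that one (edgeR adjusted p = 0.673 and 0.967).

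**Figure D5:**
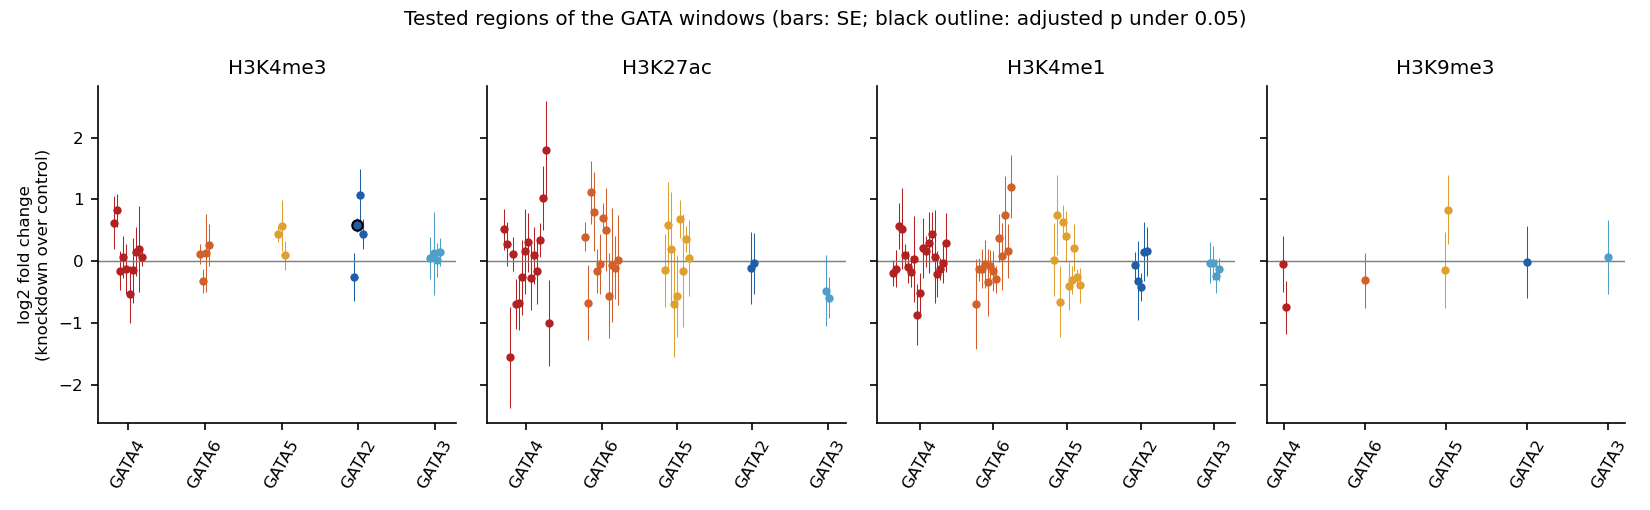
Log2 fold change, knockdown over control, of every tested region in the GATA windows by gene and mark, with SE bars and regions in genomic order within a gene. The outlined GATA2 point for H3K4me3, at 0.59, is the region called at adjusted p under 0.05.

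Among genes that work with GATA factors, H3K4me3 rose at LMO2. The list held GATA1, the co-regulators ZFPM1 and ZFPM2, the heart factors NKX2-5, TBX5 and HAND2, and the blood factors TAL1 and LMO2. For H3K4me3, 1 of its 16 tested regions rose and none fell, where 0.56% of all tested regions were called. No region was called for H3K27ac (43 tested, 0.0114% of all regions called), H3K4me1 (62, 0.0%) or H3K9me3 (8, 0.00982%). The H3K4me3 call was at LMO2, a partner of GATA2 in blood and endothelial complexes. Its region chr11:33889595-33892780 had 42.3, 52.9 and 42.9 CPM in control and 66.5, 73.7 and 82.3 in knockdown, with no overlap (log2 fold change 0.69, SE 0.11, edgeR adjusted p = 0.0053). Its adjusted p was 0.0989 without knockdown replicate 3 and between 0.00021 and 0.0458 with any other library left out. At NKX2-5, H3K27ac was 19.9, 8.99 and 28.7 CPM per kb in control and 26.9, 25.0 and 24.1 in knockdown (log2 difference 0.55). At TBX5 it was 14.4, 4.79 and 9.45 against 4.89, 3.60 and 2.90 (log2 difference -1.21). Both overlap between groups, but at TBX5 the overlap rests on control replicate 2. The mean of the other controls was 24.3 at NKX2-5, against a knockdown mean of 25.4, and 11.95 at TBX5, against 3.8. The list's H3K4me3 window differences had a median of 0.22, against 0.28 for the 5 GATA genes. For the 5 cardiomyocyte genes the H3K4me3 median was 0.61 (0.569 to 1.087), and all 5 windows overlapped between groups. Their H3K27ac median was 0.85 (0.199 to 0.939), with overlap in all but MYH6. None of their 16 tested H3K4me3 or 38 tested H3K27ac regions was called. These differences include control replicate 2, where the joint level of these genes was lowest. That joint level was also below every knockdown library in control replicate 1. It was 3.5 CPM per kb of H3K4me3 there against 5.32 to 6.51 in knockdown, and 9.93 of H3K27ac against 15.3 to 18.8. Control replicate 3, at 6.39 and 17.3, lay within the knockdown range.

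Among endothelial marker genes, H3K4me3 rose at KDR, a receptor for vascular endothelial growth factor. For H3K4me3, 1 of 4 tested regions of CDH5, KDR and PECAM1 rose, the KDR region chr4:55989496-55992660 (56.4, 62.3 and 75.0 CPM in control, 93.0, 89.3 and 89.9 in knockdown, edgeR adjusted p = 0.0201), where 0.56% of all tested regions were called. The KDR call held without control replicate 2 (adjusted p = 0.0218) or 3 (0.00039) and was lost without control replicate 1 (0.1355) or knockdown replicate 1, 2 or 3 (0.136, 0.0696 and 0.169). Their joint H3K4me3 level was 7.84 to 9.15 CPM per kb in control and 9.86 to 10.6 in knockdown. KDR carried that separation, with a log2 window difference of 0.50, while CDH5 (0.08) and PECAM1 (0.065) overlapped between groups. PAX6, the ectoderm marker with regions, was at 0.974 to 1.31 in control and 1.72 to 2.53 in knockdown, with 0 of 3 tested regions called. Of the blood markers PTPRC was at 0 for H3K4me3 in all 3 control libraries and at 0 to 0.438 in knockdown. SPI1, which RefSeq places next to the heart gene MYBPC3, was at 4.9, 2.4 and 7.4 in control. In knockdown it was at 7.4, 6.2 and 6.7, so its groups overlap. None of the 2 tested blood regions was called. The pluripotency, fibroblast and epicardial, and endoderm lists had no called H3K4me3 region. Of the endoderm markers, SOX17 had H3K4me3 of 6.84, 5.24 and 4.47 CPM per kb in control and 3.46, 3.3 and 2.57 in knockdown, and H3K27ac of 6.62, 1.7 and 2.07 against 0.45, 0 and 1.22, with all knockdown libraries below all controls (exact two-sided permutation p = 0.1 each, the smallest possible). FOXA2 overlapped between groups, with log2 differences of -0.55 for H3K4me3 and -0.998 for H3K27ac. Whether the share of any such cells differs between groups was not tested.

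By pattern over the 24 libraries, the window most like GATA4 was TNNT2 (root mean square log2 difference 0.45), then SPI1 (0.64). RefSeq places SPI1 next to MYBPC3, a heart contractile gene, so the SPI1 window need not report on SPI1. GATA6 was closest to HAND2 (0.63) and GATA4 (0.67), and GATA5 to ZFPM1 (0.48) and ZFPM2 (0.65). GATA2 was closest to GATA3 (0.57) and SOX2 (0.66), and GATA3 to KDR (0.56) and GATA2 (0.57). These are descriptions over 30 other windows that share libraries and depth, and the windows of genes outside the GATA family were entered from known gene positions and not checked against an hg19 annotation.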

How the data were processed

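The deposited files give counts of reads per region, not normalized, over the same regions in all 24 libraries. The authors' tools, per the submitters' processing notes, were Bowtie2 2.4.5, bedtools 2.30.0 and deepTools 3.5.4, on hg19; the making of the regions and any read filter are not given in the sources used here. In each library even numbers made up 51.9% to 65.9% of the counts above 0, so both mates of a pair may have been counted; the tests take their spread from the libraries.

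Each mark was fitted on its own 6 libraries with edgeR 4.0.16 in R 4.3.3 (filterByExpr, TMM, robust quasi-likelihood test, group as the only term), with Benjamini-Hochberg adjustment over all tested regions and a threshold of 0.05. The SE is the log2 fold change over the square root of F. Window levels add 0.1 before log2 and were compared by exact two-sided permutation tests (scipy 1.17.1). Alternatives used DESeq2 1.42.0, limma 3.58.1, other scalings, filters and left-out libraries. The test was checked on simulated counts. Named regions are the densest of at least 500 bp, the one with the smallest p and any called, per window and mark. Regions with the most H3K4me3 counts were added later. Partner and marker windows add 5 kb to each side of a gene. Members and lists were chosen with earlier results of these data known. Positions count from 1. No pair of replicates agreed within sampling noise (chi-square per degree of freedom 2.76 to 6.68).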

Additional observations from a re-analysis of the deposited data

How the results depend on the processing

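The count of GATA regions called for H3K4me3 was 1 with RLE size factors, library totals alone, limma-voom, the strict filter and windows holding whole regions only. It was 2 with DESeq2 (GATA2 and GATA5), 3 with no filter (GATA2, GATA5 and GATA4), and 0 to 3 with 1 library left out. For H3K27ac, H3K4me1 and H3K9me3 it was 0 under every setting run. The strict filter left some low regions untested.

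With the replicate number as a block, 1 H3K4me3 region was called, at GATA5 (log2 fold change 0.46, edgeR adjusted p = 0.0318) in place of GATA2 (0.58, adjusted p = 0.0552), and 0 for the other marks. Deviations of same-numbered libraries correlated between -0.099 and 0.064. This does not settle whether same-numbered samples share a culture or batch, and the sources used here do not say. Each number has 1 library per group, so window differences and the heart minus other difference are the same within replicate numbers by arithmetic. That sameness is no check of pairing, and 3 pairs allow no p under 0.25.

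With 1 library left out, the log2 difference between groups ranged from -0.059 to 0.237 for GATA6 H3K4me3 and from -0.148 to 0.583 for GATA4 H3K27ac. For H3K4me1 it ranged from -0.163 to 0.072 at GATA4, -0.173 to 0.016 at GATA6 and -0.174 to 0.024 at GATA3. For H3K9me3 it ranged from -0.348 to 0.48 at GATA4, -0.321 to 0.678 at GATA6, -0.022 to 0.478 at GATA2 and -0.239 to 0.134 at GATA3. The heart minus other difference ranged from -0.43 to 0.163 for H3K4me3, -0.036 to 0.675 for H3K27ac, -0.158 to 0.183 for H3K4me1 and -0.042 to 0.439 for H3K9me3. With library totals alone, GATA4 H3K4me1 moved from -0.019 to 0.018. The causes were not tested. On simulated counts a log2 fold of 1 was recovered for 55.2% of changed regions with H3K4me3, 9.5% with H3K9me3, 9.4% with H3K4me1 and 1.2% with H3K27ac. Unchanged regions called in the same runs numbered 15, 1, 4 and 0 in that order.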
